A study of Mus musculus with 13 samples.

Results

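The genes examined here lie on mouse chromosome 14 between the Tra and Trd locus and the end of the chromosome. The locus encodes the T cell receptor alpha and delta chains. In a developing thymocyte the RAG1 and RAG2 recombinase cuts and joins its gene segments, and the kinase ATM, which responds to DNA double-strand breaks, helps to keep the cut ends together until they are joined. Thymic lymphomas of Atm-deficient mice are known for translocations that join the Tra and Trd locus to another chromosome, and a break at the locus separates the genes distal to it from the centromere. Members were chosen by position and by their own level in the table. They start past the end of the locus on chromosome 14, have 3 or more of the 13 libraries at a normalized count of 10 or higher, and are neither T cell receptor, ribosomal protein, collagen or granzyme genes nor 1 of a few genes left out by name. The table lists 681 genes past the locus, of which 388 were under this floor and 9 were left out by name, which leaves 284 members among the 15872 genes of all chromosomes that passed the same floor. The members span 70.44 Mb, from the start of Dad1 at 54235479 to the end of Fgf14 at 124677127 (build GRCm38), and 254 of them are protein coding.

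The libraries came from 5 Atm-/- lymphomas of strain 129S6/SvEv, 5 Rag2c/c p53-/- lymphomas of a background that mixes C57BL/6 with 129S6/SvEv and 3 wild-type (WT) thymuses of C57BL/6 mice. Atm-/- mice lack ATM, and Rag2c/c p53-/- mice lack p53 and make a RAG2 shortened to its core, which still cuts and joins DNA. Polyadenylated RNA of single-cell suspensions was sequenced with a stranded kit, and the WT libraries were taken over from another series. Strain, series and group go together and cannot be told apart, and DNA copy number was not measured in these files. Each lymphoma counts as 1 sample, but the labels do not say whether it came from an animal of its own, and p-values measure only the spread between these samples.

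Atm itself was at 208 to 732 normalized counts in Atm-/- lymphomas, 439 to 1315 in Rag2c/c p53-/- lymphomas and 1559 to 2274 in WT thymuses. The ranges of the lymphoma groups overlapped, and both lay below the WT thymuses. The gene Rag2 was at 260 to 790 in Rag2c/c p53-/- lymphomas, 46 to 1025 in Atm-/- lymphomas and 4199 to 5409 in WT thymuses. Trp53 was at 2018 to 5461 in Rag2c/c p53-/- lymphomas and at 4387 to 6341 in WT thymuses, ranges that overlap. In Atm-/- lymphomas it was at 6853 to 11318. Which exons each allele lacks is not given in the sources used here, so reads may come from what remains of either gene. All 8 T lineage markers (Cd3e, Cd3d, Cd3g, Lck, Cd2, Thy1, Cd4 and Cd8a) were above 0 in every library, and their summed level was 70890 to 136162 in Atm-/- lymphomas, 79531 to 146423 in Rag2c/c p53-/- lymphomas and 103196 to 162809 in WT thymuses. The summed level of 6 B cell markers was 103 to 272, 92 to 506 and 1446 to 1770 in the same order. For 6 thymic epithelium markers it was 189 to 624, 289 to 1320 and 861 to 1204, for the 5 myeloid markers found 6184 to 10325, 3668 to 7580 and 3242 to 3482, and for 6 fibroblast markers 3783 to 18172, 642 to 2336 and 204 to 218. The sums of endothelium markers (3467 to 6419, 2108 to 5643 and 3657 to 3776) and of erythroid markers (881 to 6327, 798 to 4360 and 1003 to 2209) overlapped between all groups. As medians of log2(value + 1) over the list, however, endothelium markers were at 1.0 to 2.79 in Rag2c/c p53-/- lymphomas and at 4.06 to 5.28 in WT thymuses, and thymic epithelium markers were at 3.32 to 6.58 in Atm-/- lymphomas, 2.73 to 5.28 in Rag2c/c p53-/- lymphomas and 7.29 to 7.89 in WT thymuses. Among the markers at 0 in some library were Pax5 and Ms4a1 of the B cell list and Foxn1 and Prss16 of the thymic epithelium list. In 6 libraries 1 read was worth 1.47 to 3.38 normalized counts, which makes an estimated 6.36 to 13.7 M reads on genes. WT thymus 2 was among them, with 6.68 M, and in the other 7 libraries a read was worth less than 1 normalized count. In bulk RNA, fewer cells of a type and less RNA per cell cannot be told apart.

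A pair of sequence sets place the arm in view. The first is shown because the arm carries the genes of 2 well-known groups of microRNAs, which repress messenger RNAs that match their seed. Bases 2 to 8, the seed, are in capitals, and the sequences are those of RefSeq for build GRCm38.p6. The first pair lies in Dleu2 on the minus strand and shares a seed, and miR-17-5p and miR-20a-5p, as well as miR-19a-3p and miR-19b-3p, share theirs in Mir17hg on the plus strand.
miR-15a-5p: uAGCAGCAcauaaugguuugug
miR-16-5p: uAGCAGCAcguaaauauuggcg
miR-17-5p: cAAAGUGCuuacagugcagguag
miR-20a-5p: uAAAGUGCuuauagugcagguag
miR-18a-5p: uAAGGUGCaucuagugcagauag
miR-19a-3p: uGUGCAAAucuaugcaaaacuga
miR-19b-3p: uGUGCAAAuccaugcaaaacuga
miR-92a-3p: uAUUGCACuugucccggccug
The hosts are named for these sequences and not by the rule for named genes. The host transcript Dleu2 (chromosome 14 from 61602839 to 61682373) was at 1118, 1264 and 1226 normalized counts in WT thymuses, at 504, 2112, 1273, 1008 and 531 in Atm-/- lymphomas 1 to 5 and at 867 to 2769, with a median of 1468, in Rag2c/c p53-/- lymphomas. Mir17hg was at 275, 266 and 309 in WT thymuses, at 275, 697, 512, 799 and 273 in Atm-/- lymphomas 1 to 5 and at 321 to 706 in Rag2c/c p53-/- lymphomas. Both hosts had their lowest values among the Atm-/- lymphomas in lymphomas 1 and 5, and neither passed the test of any comparison. The mature microRNAs are too short for these libraries and were not measured.

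The second set shows the 250 bases before an annotated start (RefSeq, GRCm38.p6) for 4 members whose values carry the results below and which lie toward both ends of the arm. CpG dinucleotides (CG, which reads the same on both strands) are in capitals. Cdh24 lies near the locus, and Cldn10, Dzip1 and Gpr18 lie near the end of the chromosome.
Cdh24, chr14:54641365-54641614, minus strand: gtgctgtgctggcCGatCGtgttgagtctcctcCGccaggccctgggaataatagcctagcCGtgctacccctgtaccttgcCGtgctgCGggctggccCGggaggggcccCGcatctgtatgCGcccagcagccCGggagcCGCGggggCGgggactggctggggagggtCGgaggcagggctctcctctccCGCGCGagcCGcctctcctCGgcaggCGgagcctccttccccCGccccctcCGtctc
Cldn10, chr14:118787621-118787870, plus strand: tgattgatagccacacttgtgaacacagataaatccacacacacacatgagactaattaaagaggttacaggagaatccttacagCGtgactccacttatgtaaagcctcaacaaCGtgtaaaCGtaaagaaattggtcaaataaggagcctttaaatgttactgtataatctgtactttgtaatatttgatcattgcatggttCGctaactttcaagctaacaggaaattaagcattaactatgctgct
Dzip1, chr14:118925471-118925720, minus strand: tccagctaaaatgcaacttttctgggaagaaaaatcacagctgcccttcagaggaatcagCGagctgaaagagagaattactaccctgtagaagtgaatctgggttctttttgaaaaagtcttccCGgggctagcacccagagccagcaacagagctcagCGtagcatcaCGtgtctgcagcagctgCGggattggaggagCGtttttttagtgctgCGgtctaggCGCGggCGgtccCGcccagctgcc
Gpr18, chr14:121915889-121916138, minus strand: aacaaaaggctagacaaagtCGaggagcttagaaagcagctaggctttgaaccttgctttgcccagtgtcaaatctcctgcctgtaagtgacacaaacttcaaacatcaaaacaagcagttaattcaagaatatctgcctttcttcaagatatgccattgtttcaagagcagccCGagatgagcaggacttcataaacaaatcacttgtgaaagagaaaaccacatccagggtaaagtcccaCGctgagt
The printed windows hold 22, 4, 11 and 3 CpG. Dzip1 has another annotated start, whose window (chr14:118923168-118923417) holds 6 CpG and is not printed. Promoters were found for 170 of the 284 members, and 67.3% of their 217 windows held at least 10 CpG, the same share as among the 13429 windows of tested genes, and above the 37.8% of the 32851 windows of all genes, which did not have to pass the floor. Methylation was not measured in these files.

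The level of the arm was taken as the median, over the 284 members, of the log2 difference from the mean of the WT thymuses, less the same median over tested genes of the other chromosomes. On this scale Atm-/- lymphomas 1 to 5 were at -0.91, -0.15, -0.25, -0.35 and -0.95. As a ratio to WT, relative to the genes of the other chromosomes, these medians are 0.531, 0.899, 0.842, 0.786 and 0.517. The Rag2c/c p53-/- lymphomas 1 to 5 were at 0.27, 0.10, -0.03, 0.14 and 0.14, and the WT thymuses at 0.01, -0.02 and 0.01. The mean was -0.52 ± 0.38 (SD, n = 5) for Atm-/- lymphomas and 0.12 ± 0.11 (SD, n = 5) for Rag2c/c p53-/- lymphomas. Every Atm-/- lymphoma was below every Rag2c/c p53-/- lymphoma and every WT thymus, and the range among the Atm-/- lymphomas was wide, with lymphomas 1 and 5 far below the other three. Lymphomas 1 and 5 were also the Atm-/- libraries where a read was worth less than 1 normalized count. In lymphomas 2, 3 and 4 a read was worth 2.28, 1.55 and 1.88. Within this group, depth and the split of the lymphomas go together and cannot be told apart.

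The other side of the locus did not go along with it. The 224 tested genes of chromosome 14 proximal to the locus had medians of 0.70, 0.33, 0.58, 1.12 and 0.64 in Atm-/- lymphomas 1 to 5, so that the distal median was lower than the proximal one by 0.49 to 1.61 on the log2 scale. In Rag2c/c p53-/- lymphomas 1 to 5 the proximal medians were 0.20, -0.07, 0.59, -0.15 and 0.63, and the distal minus proximal difference was between -0.62 and 0.30. Among the 19 other chromosomes the lowest median of any Atm-/- lymphoma was -0.40 and the highest 0.57, and the distal medians of lymphomas 1, 4 and 5 lay below the lowest chromosome of their own library. Lymphoma 2, at -0.15, lay within the range of its other chromosomes, and lymphoma 3, at -0.25, lay just above its lowest, -0.27 for chromosome 12.

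**Figure D1:**
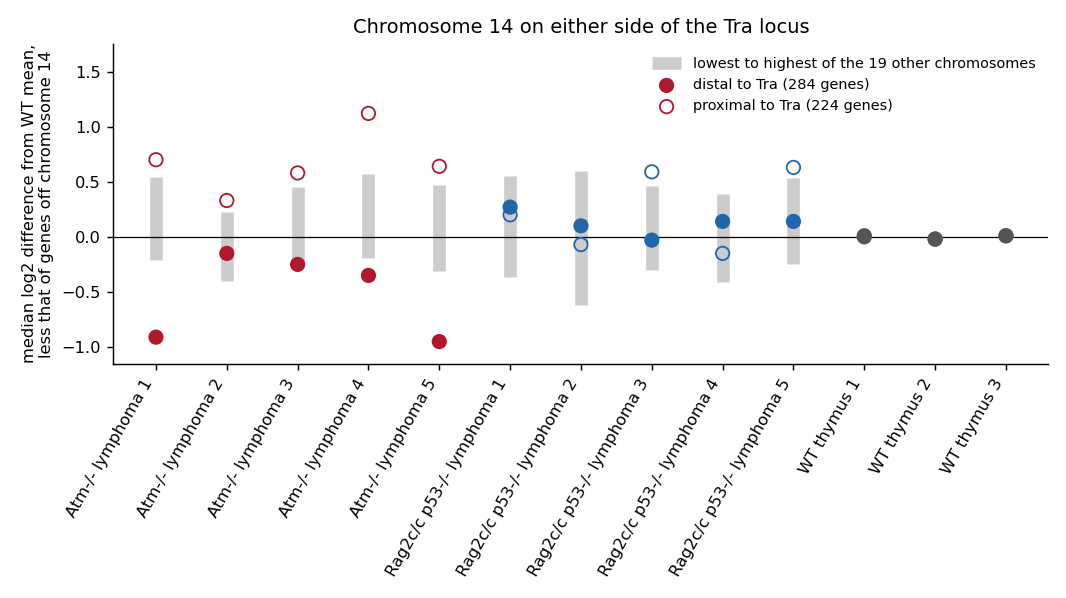
Median log2 difference from the WT mean (vertical axis) in each of the 13 libraries, for the 284 members distal to Tra (filled points) and the 224 tested genes proximal to it (open points), both less the median of genes off chromosome 14. Grey bars run from the lowest to the highest of the 19 other chromosomes, and in all 5 Atm-/- lymphomas (red) the distal point sits below 0 and the proximal point above the bar.

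Counting genes in place of medians gave the same order. In Atm-/- lymphoma 1, 212 of the 284 members (74.6%) were below the lowest of the 3 WT thymuses, against 43.3% of the 15872 tested genes. In lymphoma 5 they were 213 (75%, against 43.5%). Lymphomas 2, 3 and 4 had 143, 153 and 164 such members (50.4%, 53.9% and 57.7%), against 45.2%, 44.8% and 44.3% of tested genes. In Rag2c/c p53-/- lymphomas 1 to 5 the counts were 93, 123, 123, 105 and 110 (32.7%, 43.3%, 43.3%, 37.0% and 38.7%), against 42.2%, 45.9%, 41.5%, 43.9% and 43.1%, so that only lymphoma 3 of that group had a larger share among members than among tested genes. In Atm-/- lymphomas 1 and 5 the median was low at every level of abundance. In lymphoma 1 the median was -0.99 for the 82 members with a mean under 100, -0.86 for the 98 between 100 and 1000 and -0.90 for the 104 above, and in lymphoma 5 it was -1.23, -0.85 and -0.92. Lymphoma 3 had -0.91, -0.05 and -0.06, with the lower median among genes of low level. Lymphoma 2, with -0.33, -0.11 and -0.05, and lymphoma 4, with -0.72, -0.39 and -0.28, also had their lowest median among genes under 100. The same held in all Rag2c/c p53-/- lymphomas. Their medians under 100 were -0.53, -0.27, -0.27, -0.13 and -0.55 in lymphomas 1 to 5. Between 100 and 1000 they were 0.34, 0.17, 0.08, 0.21 and 0.29, and above that -0.05 to 0.39. No such split is given here for genes of other chromosomes.

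Along the arm, members were taken in 14 runs of 20 consecutive genes, the last of 24. In Atm-/- lymphomas 1 and 5 the runs lay between -1.29 and -0.38 and between -1.38 and -0.46, and 12 and 13 of the 14 were at -0.5 or lower, against 9.84% and 12.4% of 752 runs of 20 tested genes on the other chromosomes of the same library. Lymphomas 2, 3 and 4 had 2, 4 and 4 such runs, against 15.3%, 15% and 13.2%. Of the Rag2c/c p53-/- lymphomas, number 2 had 1 such run and the others had 0, against 8.91% to 21.4% of runs on other chromosomes. The runs described next were picked after their values were seen. The first run, from Dad1 to Ppp1r3e within 0.65 Mb of the locus, was at -0.58, 0.01, 0.45, 0.21 and -0.46 in Atm-/- lymphomas 1 to 5 and at 0.79, 0.95, 0.26, 0.55 and 0.32 in Rag2c/c p53-/- lymphomas, which were all above the WT range of -0.08 to 0.12. The last run, from Abcc4 to Fgf14 and starting 64.26 Mb from the locus, was at -1.29, -0.73, -1.10, -1.03 and -1.21 in Atm-/- lymphomas 1 to 5, and here lymphomas 2, 3 and 4 were low as well. The run from Dok2 to Gm4285, 16.54 to 21.62 Mb from the locus, was the other one at -0.5 or lower in all of them, at -1.03, -0.61, -0.53, -0.86 and -1.05. In Rag2c/c p53-/- lymphomas the last run was between -0.23 and 0.33.

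**Figure D2:**
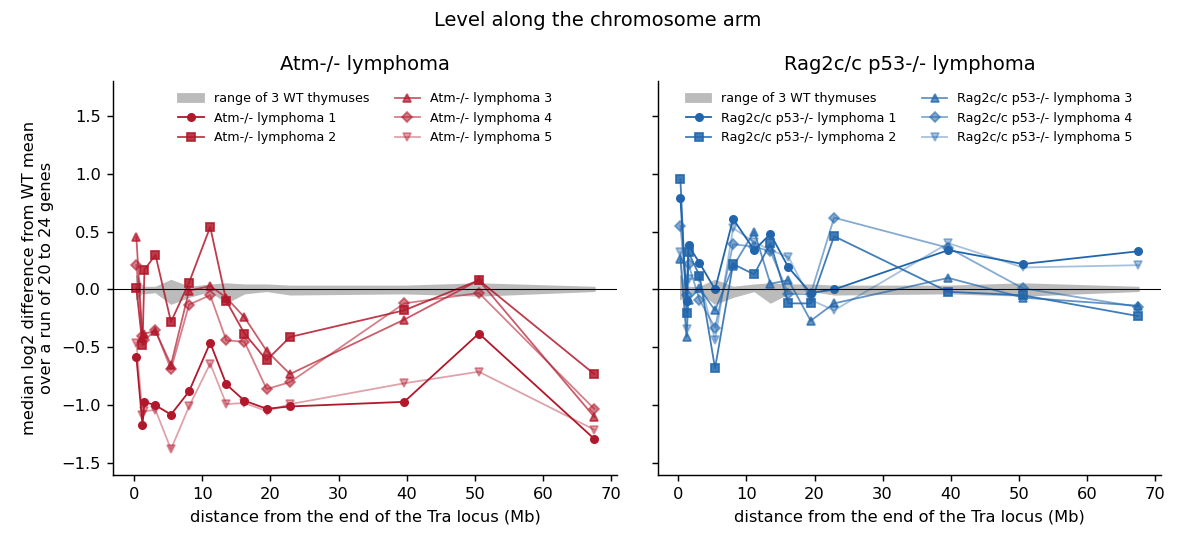
Median log2 difference from the WT mean over each of 14 runs of 20 to 24 consecutive members (vertical axis) against the distance of the run from the end of the Tra locus in Mb, for the 5 Atm-/- lymphomas (left) and the 5 Rag2c/c p53-/- lymphomas (right). Lines join the runs of 1 lymphoma and the grey band spans the 3 WT thymuses; Atm-/- lymphomas 1 and 5 are below the band throughout and all 5 are at -0.73 or lower in the last run.

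The question of the first comparison is which genes of the arm differ between Atm-/- lymphomas and WT thymuses. Here 105 of the 284 members (37.0%) were lower at an adjusted p under 0.05, against 23.6% of all tested genes, and 31 (10.9%) were higher, against 21.0%. With an absolute log2 difference of at least 1 besides, the counts were 84 lower (29.6%, against 17.1%) and 23 higher (8.10%, against 12.7%). The median log2 difference of the members was -0.51, and that of all tested genes was -0.019. For 109 members (38.4%, against 27.9% of tested genes) every Atm-/- lymphoma was below every WT thymus, and for 31 (10.9%, against 23.4%) every one was above. Without WT thymus 3 the number of higher members fell to 18.

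Rag2c/c p53-/- lymphomas differed from WT thymus at fewer members, and in both directions. Lower members numbered 42 (14.8%, against 19.7% of tested genes) and higher members 52 (18.3%, against 17.5%). With an absolute log2 difference of at least 1 besides they numbered 34 (12.0%, against 13.9%) and 29 (10.2%, against 9.92%). The median log2 difference of the members was 0.12, against -0.018 for all tested genes. Without WT thymus 2 or 3 the higher members fell to 29 and 32, and without WT thymus 1 or 3 the lower members fell to 24 and 22. The 2 comparisons share the WT libraries. Their counts are set side by side here and were not compared by overlap.

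Set against each other, the lymphoma groups differed mostly one way. In Atm-/- lymphomas 79 members (27.8%) were lower than in Rag2c/c p53-/- lymphomas, against 6.48% of tested genes, and 8 (2.82%) were higher, against 5.13%. With an absolute log2 difference of at least 1 besides, 39 were lower (13.7%, against 4.49%) and 8 higher (2.82%, against 3.56%). The median log2 difference was -0.62, against 0.022 for all tested genes. Groups did not overlap at 53 members (18.7%, against 8.33% of tested genes). Without Atm-/- lymphoma 1 the lower members fell to 52, and without Atm-/- lymphoma 4 or Rag2c/c p53-/- lymphoma 1 the higher members fell to 5.

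The first genes past the locus were not those that fell most in Atm-/- lymphomas. Dad1 (chromosome 14, 54235479 to 54254104), a subunit of the enzyme that adds N-linked sugars, was at 1780, 2820 and 1800 in WT thymuses, at 1650, 4391, 3550, 2497 and 1898 in Atm-/- lymphomas 1 to 5 and at 3508, 6626, 2576, 3649 and 2919 in Rag2c/c p53-/- lymphomas. Its groups overlapped and it passed none of the tests. Of the next 9 members, Abhd4, Oxa1l, Slc7a7, Mrpl52, Mmp14, Lrp10, Rem2, Prmt5 and Haus4, the Atm-/- lymphomas were lower than WT at Lrp10 and higher at Prmt5. Prmt5 (54507187 to 54517525), an arginine methyltransferase that acts on splicing factors and histones, was at 2884, 3486 and 3098 in WT thymuses and at 3766, 6650, 6176, 5345 and 3529 in Atm-/- lymphomas, a log2 difference of 0.65 ± 0.20 (SE, adjusted p = 0.0203). In Rag2c/c p53-/- lymphomas it was at 6198 to 8433 with a median of 7560, higher by 1.23 ± 0.20 (adjusted p = 0.00059). No library of either lymphoma group overlapped the WT thymuses. Without WT thymus 1 or 3 the Atm-/- call of Prmt5 was lost (adjusted p = 0.082 and 0.065). Lrp10, an endosomal receptor, had a mean of 6373 ± 652 in WT thymuses (SD, n = 3) and 3919 ± 1010 in Atm-/- lymphomas (SD, n = 5), with a log2 difference of -0.74 ± 0.20 (SE, adjusted p = 0.00902).

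In Rag2c/c p53-/- lymphomas 6 of these first 10 members were higher than in WT thymus, against 17.5% of all tested genes and 18.3% of the members. Besides Prmt5 they were Oxa1l, an insertase of the mitochondrial inner membrane (log2 difference 0.76 ± 0.24, SE), the amino acid transporter Slc7a7 (1.41 ± 0.44), the membrane metalloprotease Mmp14 (2.69 ± 0.91), the small GTPase Rem2 (2.29 ± 0.62) and Haus4 of the augmin complex of the spindle (0.75 ± 0.24). Their adjusted p lay between 0.0117 for Rem2 and 0.0335 for Mmp14, and the calls of Oxa1l, Slc7a7, Mmp14 and Haus4 were lost without WT thymus 1, 2 or 3 in turn (adjusted p 0.0503 to 0.0924). Without lymphoma 2 or 4 of that group the calls of Mmp14 (adjusted p = 0.0601 and 0.0558) and Haus4 (0.0529 and 0.0575) were lost as well, as was that of Mmp14 without lymphoma 1 (0.0564). The summed fibroblast markers were also higher in Rag2c/c p53-/- lymphomas (642 to 2336) than in WT thymuses (204 to 218). Their part in the values of Mmp14 was not tested. Oxa1l and Slc7a7 overlap at their ends, and since the strand setting of the counting is not given, reads there may be shared.

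The last members before the telomere, Ggact, Tmtc4 and Fgf14, went different ways. Ggact, which breaks down cross-links left by transglutaminases, was at 275, 286 and 217 in WT thymuses, at 364 to 1009 in Atm-/- lymphomas (log2 difference 1.17 ± 0.30, SE, adjusted p = 0.00659) and at 564 to 1003 in Rag2c/c p53-/- lymphomas (1.39 ± 0.30, adjusted p = 0.00302). Tmtc4 passed no test. Fgf14, a modulator of neuronal sodium channels at the very end (123977907 to 124677127), was at 18, 10 and 18 in WT thymuses, was listed at 0 in all 5 Atm-/- lymphomas and was at 0 to 2 in Rag2c/c p53-/- lymphomas, and reached the floor only through WT thymuses.

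The largest difference of the arm was at Dzip1 (chromosome 14, 118875520 to 118925314), a zinc finger protein needed for cilia and Hedgehog signalling, a promoter of which is printed above. It was at 3981, 4801 and 4283 in WT thymuses and at 6313, 3691, 2477, 2300 and 2470 in Rag2c/c p53-/- lymphomas 1 to 5. In Atm-/- lymphomas 1 to 5 it was at 15, 48, 88, 36 and 36. No Atm-/- library came near the others, and the log2 difference was -6.78 ± 0.45 (SE, adjusted p = 3.78e-07) from WT thymus and -6.34 ± 0.39 (adjusted p = 6.13e-07) from Rag2c/c p53-/- lymphomas. The difference between Rag2c/c p53-/- lymphomas and WT thymus, -0.45 ± 0.45, did not pass (adjusted p = 0.453). Per length, the level of Dzip1 in WT thymus was 413 normalized counts per kb of exon, close to the 415 of Irf9 and below the 1310 of Elf1, both described below.

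Its neighbour on the proximal side, Cldn10 (118787908 to 118875489), a claudin of tight junctions, was at 101, 94 and 90 in WT thymuses, at 0, 0, 2, 0 and 0 in Atm-/- lymphomas and at 3, 10, 15, 21 and 25 in Rag2c/c p53-/- lymphomas. All 3 groups were apart, and all 3 comparisons passed, with log2 differences of -6.27 ± 0.62 (SE, adjusted p = 9.34e-06) for Atm-/- lymphomas and -2.86 ± 0.62 (adjusted p = 0.00309) for Rag2c/c p53-/- lymphomas against WT, and of -3.41 ± 0.54 (adjusted p = 0.00125) between the lymphoma groups. Claudins are made by epithelia, and the summed thymic epithelium markers were also lower in Atm-/- lymphomas (189 to 624) than in WT thymuses (861 to 1204), while those of Rag2c/c p53-/- lymphomas (289 to 1320) overlapped them in sum but lay below them in the median over the list, as given above. Their part in the values of Cldn10 was not tested. On the distal side of Dzip1, Dnajc3, a co-chaperone of the endoplasmic reticulum named after its values were seen, was at 5844, 5522 and 5818 in WT thymuses, at 1237 to 2252 in Atm-/- lymphomas and at 3317 to 5610 in Rag2c/c p53-/- lymphomas. It was lower in Atm-/- lymphomas than in WT thymus by a log2 difference of -1.84 (adjusted p = 3.47e-05) and than in Rag2c/c p53-/- lymphomas by -1.32 (adjusted p = 0.000621).

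Among members that passed without overlap, the others with the lowest log2 differences in Atm-/- lymphomas were Adamdec1, Rec8, Gm28049 and Nynrin. Adamdec1, a secreted metalloprotease of macrophages and dendritic cells, was at 187, 123 and 199 in WT thymuses, at 0 to 8 in Atm-/- lymphomas (log2 difference -6.35 ± 0.97, SE, adjusted p = 0.000227) and at 0 to 27 in Rag2c/c p53-/- lymphomas (-4.28 ± 0.97, adjusted p = 0.00417). Nynrin, a gene with a domain of retroviral origin, was at 133 to 162 in WT thymuses, at 0 to 16 in Atm-/- and 0 to 43 in Rag2c/c p53-/- lymphomas. Gm28049, a predicted protein-coding gene, was at 52 to 68 in WT thymuses, and was listed at 0 in all Atm-/- lymphomas and in every Rag2c/c p53-/- lymphoma except lymphoma 2, which had 10. It would not have reached the floor without the WT thymuses, so its values are a description. Rec8, a cohesin subunit of meiosis, was at 144, 68 and 91 in WT thymuses, at 0 to 2 in Atm-/- lymphomas and at 0, 3, 183, 1980 and 17 in Rag2c/c p53-/- lymphomas 1 to 5. Its spread in the latter group was the widest of the 4 genes, its fall in Atm-/- lymphomas had a log2 difference of -5.97 ± 1.8 (SE, adjusted p = 0.0162), and that call was lost without WT thymus 1 (adjusted p = 0.0589).

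Some members that are nearly silent in WT thymus were on in lymphomas. Xkr6 (63606503 to 63820809), an XK-related membrane protein, was at 5, 3 and 5 in WT thymuses, at 367, 1206, 408, 921 and 261 in Atm-/- lymphomas 1 to 5 and at 445, 328, 354, 424 and 345 in Rag2c/c p53-/- lymphomas 1 to 5. Every lymphoma was far above every thymus, with log2 differences of 6.67 ± 0.44 (SE, adjusted p = 3.7e-07) and 6.17 ± 0.44 (adjusted p = 1.5e-06), and the lymphoma groups overlapped. Its antisense neighbour Gm15918 was listed at 0 in all WT thymuses and was at 9 to 38 and 3 to 20 in the lymphoma groups. The pseudogene Gm5801 was at 7 to 10 in WT thymuses, at 93 to 258 in Atm-/- and at 112 to 193 in Rag2c/c p53-/- lymphomas, and reads of a processed pseudogene can come from its parent gene. Shisa2, an inhibitor of Wnt and FGF receptor maturation, was at 3 to 19 in WT thymuses, at 49 to 295 in Atm-/- lymphomas (log2 difference 3.29 ± 0.82, SE, adjusted p = 0.00558) and at 57 to 574 in Rag2c/c p53-/- lymphomas (4.22 ± 0.82, adjusted p = 0.00157).

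Phyhip (70457476 to 70468832), known from neurons, was on in Atm-/- lymphomas only among these libraries. It was at 52, 71, 85, 64 and 54 there, at 1, 0 and 1 in WT thymuses and at 0 to 3 in Rag2c/c p53-/- lymphomas. It reached the floor of 10 only through Atm-/- lymphomas, so these values are a description. Mtmr9 (63523616 to 63543953), an inactive phosphatase of the myotubularin family that lies just proximal of Xkr6, was at 1077, 942 and 1037 in WT thymuses, at 4298, 2480, 1903, 6977 and 2002 in Atm-/- lymphomas and at 534 to 1141 in Rag2c/c p53-/- lymphomas. It was higher in every Atm-/- lymphoma than in any other library, by 1.6 ± 0.38 (SE, adjusted p = 0.00411) and 1.91 ± 0.33 (adjusted p = 0.00242) on the log2 scale. The lincRNA 4930480K23Rik was at 144 to 340 in Atm-/- lymphomas, at 71 to 103 in WT thymuses and at 38 to 102 in Rag2c/c p53-/- lymphomas.

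A stretch of 0.205 Mb that starts 11.7 Mb from the locus held 5 consecutive members with uneven values. Scara3, a scavenger receptor, was at 1615, 3852, 70, 2613 and 80 in Atm-/- lymphomas 1 to 5, at 17, 10 and 17 in WT thymuses and at 19, 0, 702, 13 and 2 in Rag2c/c p53-/- lymphomas 1 to 5. Adam2, a sperm surface protein, was at 125, 139, 14, 427 and 26 in Atm-/- lymphomas and at 0 to 8 in all other libraries. Ephx2, an epoxide hydrolase, was at 20, 57, 9, 81 and 8 in Atm-/- lymphomas, at 8 to 11 in WT thymuses and at 0 to 6 in Rag2c/c p53-/- lymphomas. For all 3 genes lymphomas 1, 2 and 4 were above lymphomas 3 and 5. Between them lie Clu and Gulo, named after their values were seen. Clu, the chaperone clusterin, was highest in lymphomas 4 and 5 (1083 and 489, against 141 to 189 in the other three), and Gulo, an enzyme of vitamin C synthesis, was highest in lymphoma 2 (71, against 1 to 11). Adam2 reached the floor of 10 only through Atm-/- lymphomas, and its values are a description. Ephx2, which did not pass against WT thymus, passed against Rag2c/c p53-/- lymphomas (log2 difference 2.68 ± 0.70, SE, adjusted p = 0.0253), a call lost without Atm-/- lymphoma 2 or 4 (adjusted p = 0.0511 and 0.0602). Scara3 passed against WT thymus (5.35 ± 1.82, adjusted p = 0.0292), a call lost without Atm-/- lymphoma 1, 2 or 4 or any WT thymus (adjusted p 0.0553 to 0.084).

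**Figure D3:**
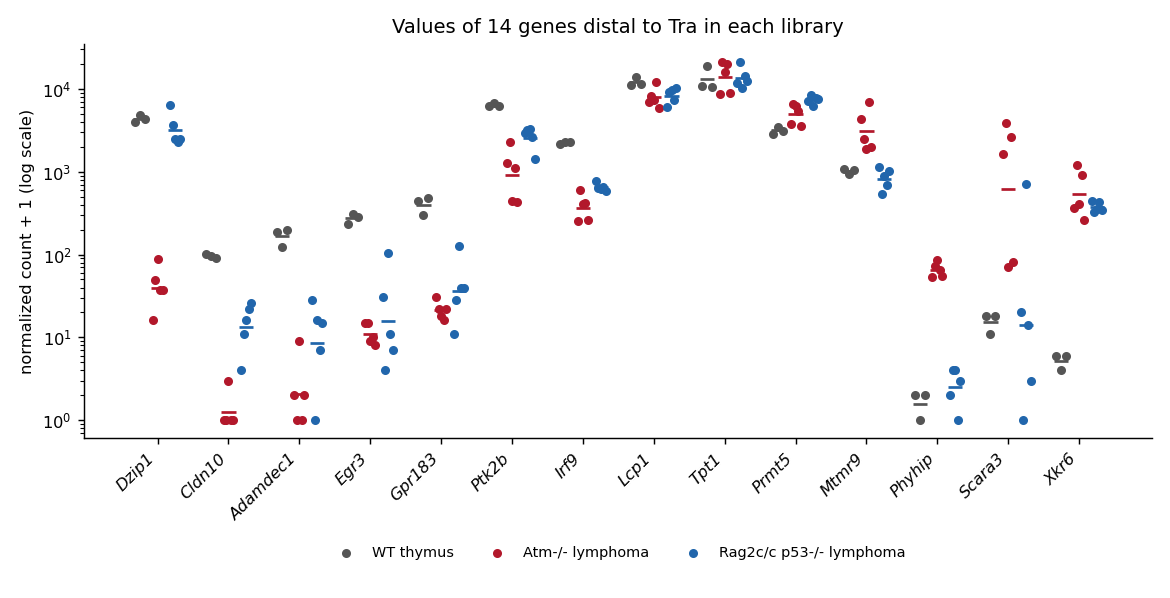
Normalized count plus 1 on a log scale (vertical axis) of 14 members in each WT thymus (grey, n = 3), Atm-/- lymphoma (red, n = 5) and Rag2c/c p53-/- lymphoma (blue, n = 5), with a bar at the mean of the log values. Dzip1 is low only in Atm-/- lymphomas (15 to 88), Phyhip is on only there (52 to 85), and Xkr6 is on in both lymphoma groups (261 to 1206) against 3 to 5 in WT thymuses.

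Between the lymphoma groups, Serp2, Gm25517, Ppp1r3e and Dock5 joined Dzip1 and Cldn10 as the members with the lowest log2 differences among those that passed without overlap. Serp2, a stress-associated protein of the endoplasmic reticulum, was at 231, 554, 219, 347 and 171 in Rag2c/c p53-/- lymphomas 1 to 5, at 11, 30, 84, 0 and 13 in Atm-/- lymphomas and at 27, 39 and 26 in WT thymuses, a log2 difference of -4.37 ± 0.88 (SE, adjusted p = 0.00643) between the lymphoma groups. Dock5, an activator of the GTPase Rac, was at 688 to 2620 in Rag2c/c p53-/- lymphomas, at 75 to 380 in Atm-/- lymphomas and at 195 to 378 in WT thymuses (-2.77 ± 0.47, adjusted p = 0.00229). In these 2 genes the Rag2c/c p53-/- lymphomas stood above both other groups. Ppp1r3e, a glycogen-targeting subunit of protein phosphatase 1, stood lowest in Atm-/- lymphomas instead, at 0 to 19, against 110 to 153 in WT thymuses and 25 to 149 in Rag2c/c p53-/- lymphomas (-3.10 ± 0.74, adjusted p = 0.0163). Gm25517 is a small nucleolar RNA inside Gtf2f2, where reads of the host gene may be counted. It was at 0 to 2 in Atm-/- lymphomas, 5 to 19 in WT thymuses and 3 to 95 in Rag2c/c p53-/- lymphomas. Its call between the lymphoma groups (log2 difference -3.21) was lost with a pseudocount of 5 (-1.82, adjusted p = 0.0506 by limma).

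The 11 lists of genes of the arm were counted, each to be read against the shares of all tested genes given above: 23.6% lower and 21.0% higher in Atm-/- lymphomas, 19.7% and 17.5% in Rag2c/c p53-/- lymphomas, and 6.48% and 5.13% between the lymphoma groups. The shares of all 284 members were 37.0% and 10.9%, 14.8% and 18.3%, and 27.8% and 2.82% in the same order. A list near the latter shares does not stand out from the arm. Transcription factors of the arm were mostly lower in lymphomas. Of the 15 on a list fixed for the arm that passed the floor, 11 were lower and 2 higher in Atm-/- lymphomas than in WT thymus (median log2 difference -1.67), and 8 were lower and 1 higher in Rag2c/c p53-/- lymphomas (-1.05). Dach1 and Cebpe are among them. Dach1 reached the floor only through WT thymuses, and Cebpe would not have passed it without them. For both the floor itself favours lower values in lymphomas. Cebpe is counted again in the myeloid list and Irf9 in the list of the proteasome, ubiquitin and the interferon response. Egr3, an early growth response factor induced by T cell receptor signals, was at 232, 312 and 285 in WT thymuses, at 14, 14, 8, 9 and 7 in Atm-/- lymphomas and at 30, 3, 104, 10 and 6 in Rag2c/c p53-/- lymphomas (log2 differences -4.64 ± 0.81 and -4.12 ± 0.81, SE, adjusted p = 0.000595 and 0.00179). Elf1, an ETS factor of lymphoid cells, was at 8197, 9723 and 8552 in WT thymuses, at 2392 to 3826 in Atm-/- lymphomas and at 2381 to 6869 in Rag2c/c p53-/- lymphomas, and both groups lay below every thymus (-1.55 ± 0.29 and -1.05 ± 0.29, adjusted p = 0.00088 and 0.0123). Without WT thymus 2 the Rag2c/c p53-/- call of Elf1 was lost (adjusted p = 0.0509). Irf9, the DNA-binding subunit of the complex that answers type I interferon, was at 2140, 2306 and 2253 in WT thymuses, at 253 to 594 in Atm-/- and at 591 to 782 in Rag2c/c p53-/- lymphomas (-2.60 ± 0.24 and -1.77 ± 0.24, adjusted p = 6.16e-06 and 0.000168). The zinc finger genes Zmym5 (-1.76 ± 0.27 and -1.19 ± 0.27) and Zmym2 (-1.67 ± 0.26 and -0.92 ± 0.26) fell in both groups, though Zmym2 lost its Rag2c/c p53-/- call without WT thymus 1 or 3 (adjusted p = 0.0523 and 0.065). Pou4f1, a POU factor of sensory neurons, rose in both, from 13 to 18 in WT thymuses to 28 to 91 and 53 to 132. Elf1 overlaps Wbp4 and Irf9 overlaps Rnf31, so their values may hold reads of these genes.

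Genes of lymphocyte signalling and movement were mostly lower in Atm-/- lymphomas. Of 22 on the list, 14 were lower and 0 higher than in WT thymus by limma, with 0 higher at an unadjusted p under 0.05 as well (median log2 difference -1.26), and 5 were lower and 2 higher in Rag2c/c p53-/- lymphomas (-0.78), where 10 were lower at an unadjusted p under 0.05. Between the lymphoma groups 9 were lower in Atm-/- by limma and 0 higher (1 at an unadjusted p under 0.05). Ptk2b, a tyrosine kinase downstream of antigen and chemokine receptors, was at 6181, 6711 and 6282 in WT thymuses, at 1280, 2274, 437, 1122 and 435 in Atm-/- lymphomas 1 to 5 and at 2941, 3181, 3268, 2603 and 1429 in Rag2c/c p53-/- lymphomas 1 to 5. Both groups lay below every thymus (log2 differences -2.81 ± 0.47 and -1.31 ± 0.47, SE, adjusted p = 0.000399 and 0.0407), and the second call was lost without Rag2c/c p53-/- lymphoma 4 or 5 or any WT thymus (adjusted p 0.0647 to 0.104). Stk24, a kinase of the Ste20 family, was at 3596 to 3963 in WT thymuses, at 999 to 1588 in Atm-/- and at 2141 to 2984 in Rag2c/c p53-/- lymphomas, with all 3 groups apart (-1.50 ± 0.17, adjusted p = 2.73e-05, and between the lymphoma groups -1.01 ± 0.15, adjusted p = 0.000741). The call of Stk24 in Rag2c/c p53-/- lymphomas (-0.49 ± 0.17, adjusted p = 0.0354) was lost without lymphoma 2 or 4 of that group or any WT thymus (adjusted p 0.0606 to 0.114).

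The receptors Gpr18 and Gpr183 lie side by side within Ubac2 near the end of the arm and were low in both lymphoma groups. Gpr183, which guides lymphocytes along oxysterols, was at 440, 299 and 477 in WT thymuses, at 30, 21, 17, 15 and 21 in Atm-/- lymphomas and at 10, 27, 126, 38 and 39 in Rag2c/c p53-/- lymphomas (log2 differences -4.23 ± 0.59 and -3.47 ± 0.59, SE, adjusted p = 0.000117 and 0.000683). Gpr18 was at 453, 452 and 427 in WT thymuses, at 92, 158, 11, 164 and 18 in Atm-/- lymphomas and at 7, 20, 28, 25 and 22 in Rag2c/c p53-/- lymphomas (-2.99 ± 0.80 and -4.50 ± 0.80, adjusted p = 0.00882 and 0.000911). B cells express both receptors, and the B cell markers were lower in both lymphoma groups by the summed levels given above. Their part in these values was not tested. Ndfip2, an adaptor of Nedd4-family ubiquitin ligases, was at 1336 to 1358 in WT thymuses, at 462 to 784 in Atm-/- lymphomas (-1.13 ± 0.19, adjusted p = 0.000388) and at 787 to 1081 in Rag2c/c p53-/- lymphomas.

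Among genes of the proteasome, ubiquitin and the interferon response, 8 of 17 were lower and 0 higher in Atm-/- lymphomas by limma, 0 also at an unadjusted p under 0.05 (median log2 difference -1.05), and 7 were lower and 2 higher in Rag2c/c p53-/- lymphomas (-0.40). Epsti1, induced by interferon, was at 2591 to 2795 in WT thymuses, at 1268, 1498, 360, 1549 and 211 in Atm-/- lymphomas and at 243 to 885 in Rag2c/c p53-/- lymphomas (-1.85 ± 0.62 and -2.19 ± 0.62, SE, adjusted p = 0.0265 and 0.0139). The Atm-/- call of Epsti1 was lost without Atm-/- lymphoma 3 or any WT thymus (adjusted p 0.0574 to 0.0756). Phf11b and Phf11c, PHD finger genes of a tandem family whose copies can share reads, fell as well, Phf11b by -2.01 ± 0.55 and -2.55 ± 0.55 and Phf11c by -2.55 ± 0.47 and -1.6 ± 0.47. Without WT thymus 1 or 3 the call of Phf11c in Rag2c/c p53-/- lymphomas was lost (adjusted p = 0.0577 and 0.0615). Mycbp2, a ubiquitin ligase, went from 5419 to 7788 in WT thymuses to 1320 to 4067 in Atm-/- and 2353 to 3583 in Rag2c/c p53-/- lymphomas, where its call was lost without WT thymus 3 (adjusted p = 0.0508). The activator subunits Psme1 and Psme2 were among the abundant members nearest to no difference, with log2 differences of -0.01 ± 0.35 and 0.08 ± 0.33 in Atm-/- lymphomas and of 0.09 ± 0.35 and -0.01 ± 0.33 in Rag2c/c p53-/- lymphomas.

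Genes of cell division and genome maintenance went apart in the 2 groups. In Rag2c/c p53-/- lymphomas 8 of 18 were higher than in WT thymus and 1 lower (median log2 difference 0.54), in Atm-/- lymphomas 3 were higher and 6 lower (-0.27), and in the comparison between the lymphoma groups 10 were lower in Atm-/- and 0 higher by limma, 0 also at an unadjusted p under 0.05. Cdca2, a chromatin-bound regulator of protein phosphatase 1 in mitosis, was at 945, 1082 and 1000 in WT thymuses, at 1550, 1459, 1973, 1865 and 1547 in Atm-/- lymphomas and at 3247, 2590, 2570, 2289 and 2984 in Rag2c/c p53-/- lymphomas. The 3 groups did not overlap (log2 differences from WT 0.73 ± 0.15 and 1.43 ± 0.15, SE, adjusted p = 0.00178 and 2.65e-05, and -0.70 ± 0.13 between the lymphoma groups, adjusted p = 0.00389). Ska3, of the outer kinetochore, showed the same order, with 509 to 537, 691 to 898 and 1024 to 1375. Neil2, a glycosylase of base excision repair, was at 5 to 8 in WT thymuses, at 13 to 54 in Atm-/- and at 54 to 156 in Rag2c/c p53-/- lymphomas (1.67 ± 0.49 and 3.64 ± 0.49, adjusted p = 0.0137 and 0.000135), and its Atm-/- call was lost without WT thymus 3 (adjusted p = 0.0598). Parp4, the polymerase of vault particles, went the other way in both, from 2079 to 2321 in WT thymuses to 277 to 532 and 378 to 825 (-2.41 ± 0.26 and -1.88 ± 0.26, adjusted p = 2.08e-05 and 0.000196).

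Among RNA processing and mitochondrial genes, more were higher than in WT thymus in Rag2c/c p53-/- lymphomas than in Atm-/- lymphomas. The mitochondrial median was above 0 in both groups. Of 26 genes of RNA processing, transcription and nuclear transport, 11 were higher and 0 lower in Rag2c/c p53-/- lymphomas by limma, 0 also at an unadjusted p under 0.05 (median log2 difference 0.50), and 3 were higher and 4 lower in Atm-/- lymphomas (-0.25). Besides Prmt5, those higher in both were Ipo4, a nuclear import receptor (0.74 ± 0.20 and 1.12 ± 0.20, SE, adjusted p = 0.0104 and 0.00107), and Pspc1 of paraspeckles (0.45 ± 0.16 and 0.75 ± 0.16, adjusted p = 0.0376 and 0.00321), whose Atm-/- call was lost without Atm-/- lymphoma 3 or 4 or any WT thymus (adjusted p 0.0768 to 0.127). Of 21 genes of mitochondria and metabolism, 9 were higher and 0 lower in Rag2c/c p53-/- lymphomas by limma, 0 also at an unadjusted p under 0.05 (0.56), against 2 higher and 5 lower in Atm-/- lymphomas (0.20), where the share of lower genes was near the 23.6% of all tested genes. Those higher in both were Vwa8, an ATPase of mitochondria, and Msra, which repairs oxidized methionine. Vwa8 was at 491 to 553 in WT thymuses, at 675 to 1623 in Atm-/- and at 805 to 1283 in Rag2c/c p53-/- lymphomas, and both of its calls were lost without any single WT thymus (adjusted p 0.0538 to 0.0785). Msra rose by 0.61 ± 0.22 and 0.97 ± 0.22 on the log2 scale (adjusted p = 0.0388 and 0.00449), and its Atm-/- call was lost without Atm-/- lymphoma 3 or 4 or any WT thymus (adjusted p 0.0678 to 0.127).

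Of 16 genes of membrane traffic and protein quality, 8 were lower and 1 higher in Atm-/- lymphomas (median log2 difference -0.59), and 2 were lower and 1 higher in Rag2c/c p53-/- lymphomas (0.05), both shares below those of all tested genes. Fndc3a, a fibronectin type III protein of the endoplasmic reticulum and Golgi region, was at 1686 to 2037 in WT thymuses, at 391 to 535 in Atm-/- and at 405 to 1225 in Rag2c/c p53-/- lymphomas (-2.05 ± 0.28 and -1.31 ± 0.28, SE, adjusted p = 0.000113 and 0.00326). Ctsb, the lysosomal protease cathepsin B, was the higher one, at 4792 to 4973 in WT thymuses, 6420 to 9873 in Atm-/- and 7868 to 11583 in Rag2c/c p53-/- lymphomas (0.73 ± 0.16 and 0.89 ± 0.16, adjusted p = 0.00242 and 0.000922). Macrophages are rich in cathepsin B, and the myeloid markers were higher in both groups by the summed levels given above, a relation that was not tested. Of 10 genes of cell death and survival, 3 were lower and 2 higher in Atm-/- lymphomas (-0.22), and 1 was lower in Rag2c/c p53-/- lymphomas (0.15), the survival gene Bcl2l2 (Bcl-w), at 239, 192 and 221 in WT thymuses, at 74, 5, 25, 41 and 24 in Atm-/- and at 127, 78, 39, 43 and 11 in Rag2c/c p53-/- lymphomas. Its log2 differences were -3.05 ± 0.78 (adjusted p = 0.00672) and -2.23 ± 0.78 (adjusted p = 0.0382), and the second call was lost without Rag2c/c p53-/- lymphoma 3, 4 or 5 or any WT thymus (adjusted p 0.0599 to 0.109).

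Of the 4 myeloid genes of the arm that passed the floor, Ctsg and Cebpe would not have passed it without the WT thymuses. For these the floor itself favours lower values in lymphomas. All 4 were lower in Atm-/- lymphomas and 3 in Rag2c/c p53-/- lymphomas (median log2 difference -3.26 in each), while Lyz2, Csf1r and the other myeloid markers were higher in sum. Besides Adamdec1 they were Cysltr2, a leukotriene receptor named to complete the list, Ctsg, a protease of neutrophil granules, which was at 18 to 19 in WT thymuses, at 0 to 5 in Atm-/- lymphomas and listed at 0 in all Rag2c/c p53-/- lymphomas, and Cebpe, a factor of granulocytes, at 20 to 26, 0 to 11 and 4 to 7. Ctsg reached the floor only through WT thymuses. The call of Cebpe in Rag2c/c p53-/- lymphomas (adjusted p = 0.0426) was lost without any lymphoma of that group, without Atm-/- lymphoma 5 or without any WT thymus (adjusted p 0.0511 to 0.121). Of 8 genes of stroma, nerve and muscle, 3 were lower and 1 higher in Atm-/- lymphomas (-0.47), and 1 was lower and 2 higher in Rag2c/c p53-/- lymphomas (0.52). Cdh24, a cadherin whose promoter is printed above, was at 2303, 2586 and 2417 in WT thymuses, at 323, 683, 842, 327 and 740 in Atm-/- lymphomas and at 1186, 1260, 1506, 1000 and 1472 in Rag2c/c p53-/- lymphomas, without overlap between the 3 groups (-2.18 ± 0.30, adjusted p = 0.000115, and -1.24 ± 0.26 between the lymphoma groups, adjusted p = 0.00865). Its Rag2c/c p53-/- difference from WT (-0.94 ± 0.30, adjusted p = 0.0267) was not called without lymphoma 4 of that group or any WT thymus (adjusted p 0.0575 to 0.0828). Loxl2, an enzyme that cross-links collagen, rose from 0 to 6 in WT thymuses to 12 to 133 and 11 to 54, and the summed fibroblast markers were also higher in both groups than in WT thymuses, a relation that was not tested. Its Rag2c/c p53-/- call was lost without WT thymus 2 (adjusted p = 0.0994). Of the 4 microRNA host and deleted-in-leukemia genes, 1 was lower in Atm-/- lymphomas (median log2 difference -0.55) and 0 passed in Rag2c/c p53-/- lymphomas by limma, with 1 higher at an unadjusted p under 0.05 (0.44).

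**Figure D4:**
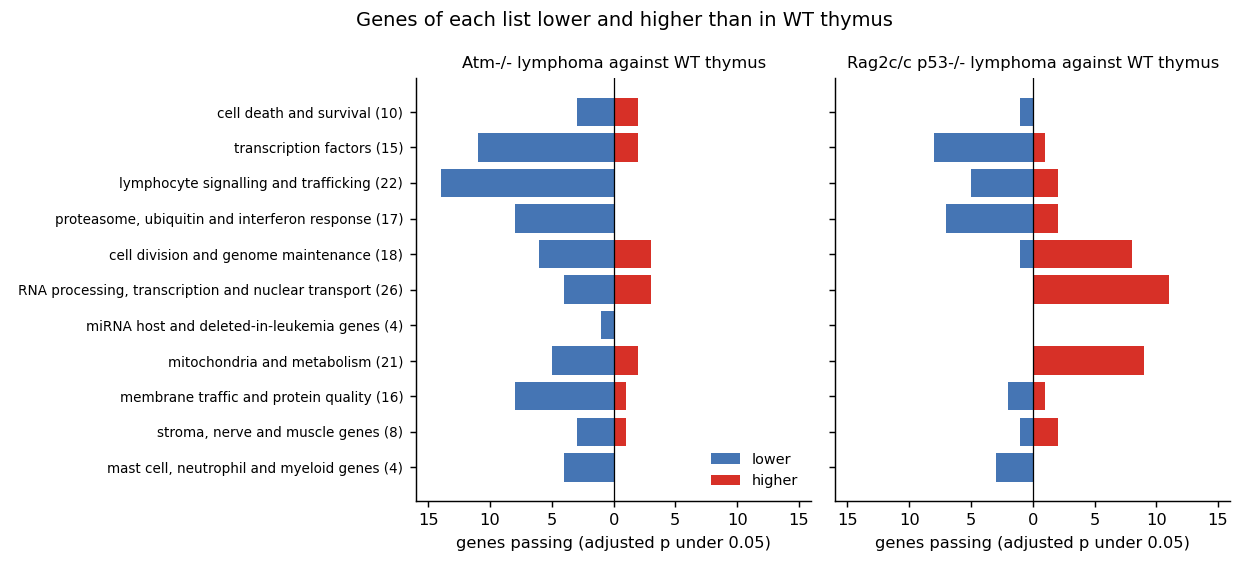
Number of members of each of 11 lists (number that passed the floor in brackets) lower (blue, to the left) and higher (red, to the right) than in WT thymus at an adjusted p under 0.05, for Atm-/- lymphomas (left) and Rag2c/c p53-/- lymphomas (right). Lymphocyte signalling genes are lower in Atm-/- lymphomas (14 of 22), and RNA processing genes are higher in Rag2c/c p53-/- lymphomas (11 of 26).

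The members with the highest normalized counts in WT thymus were Tpt1, Lcp1, Acin1, Elf1 and Spata13. Tpt1, the translationally controlled tumor protein, was at 10886, 18942 and 10624 in WT thymuses, at 8786, 20907, 15832, 19727 and 8851 in Atm-/- lymphomas and at 10133 to 21159 in Rag2c/c p53-/- lymphomas, with log2 differences of 0.09 ± 0.33 and 0.05 ± 0.33 (SE). Lymphomas 1 and 5 were again the lowest Atm-/- libraries, and those groups all overlapped. Per kb of exon in WT thymus Tpt1 had 5670 normalized counts, Elf1 1310, Lcp1 1280, Acin1 1110 and Spata13 909. Spata13, a guanine nucleotide exchange factor, was lower in Atm-/- lymphomas (3859 to 6384, against 8206 to 8352, log2 difference -0.83 ± 0.21, adjusted p = 0.00699). Acin1, a nuclear protein of splicing and apoptosis, did not pass (-0.37 ± 0.19, adjusted p = 0.121). Lcp1, the actin bundler L-plastin of leukocytes, was at 5940 to 12206 in Atm-/- lymphomas and 11056 to 13874 in WT thymuses (-0.62 ± 0.23, adjusted p = 0.0413), a call lost without any WT thymus or without Atm-/- lymphoma 1, 2, 3 or 5 (adjusted p 0.0525 to 0.142). Among the 50 most abundant members, those nearest to no difference were Ints9, Psme1 and Dis3 in Atm-/- lymphomas and Psme2, Tm9sf2 and Tpt1 in Rag2c/c p53-/- lymphomas, and between the lymphoma groups Tpt1, Lcp1 and Psme2.

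At the edge of the floor, Lrrc16b, Dach1, Klf5, Gm6254 and Fgf14 had exactly 10 as the third highest value over the libraries, and Nefm, Kcnrg, Klf12 and Gm20430 had 9 and were left out. A value of at least 10 was met in all 13 libraries by 214 members and in only 3 libraries by 11. For 3 members these were the 3 WT thymuses alone, 4 passed through Atm-/- lymphomas alone and 2 through Rag2c/c p53-/- lymphomas alone, and for these 9 the floor itself favours a difference between groups. The same holds for members such as Gm28049 and Cebpe. They reached 10 in all WT thymuses and in too few lymphomas to pass without them. Another expressed gene overlaps 63 of the members, whose values may hold its reads.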

How the data were processed

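The authors deposited 1 table for 13 libraries, whose per-library columns hold a score: read counts that the authors normalized between libraries and then wrote as whole numbers, as read from the values. They are called normalized counts here, and column totals lie between 19788898 and 21591289. The labels name bcl2fastq 1.8.3, STAR 2.4.0g1, Picard and DESeq2 1.6.3 (build GRCm38), and the paper's methods, which cover the WT thymuses, add removal of duplicates and counting of uniquely mapped reads. The strand setting is not given in the sources used here. Columns of the authors' own comparisons (fold changes, p-values) and group means were not used.

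Values were tested as log2(value + 1) with limma 3.58.1 (trend and robust moderation) in R 4.3.3, all 13 libraries in 3 groups, over the 15872 genes with at least 10 in at least 3 libraries. "Passed", "lower" and "higher" mean a Benjamini-Hochberg adjusted p under 0.05 over all tested genes, and log2 differences are on the log2(value + 1) scale, which understates those of low genes. Tests for raw counts were not run, since whole reads could not be recovered. Medians of the arm are descriptions, with no test. Exon lengths (283 of 284 members) and overlaps came from GENCODE vM21. No pair of libraries was identical.

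The members and the 11 gene lists were chosen with earlier results of these data known. Genes named are the first 10 and last 3 members, the 6 highest and 6 lowest per comparison among those that passed with groups apart, the 5 most abundant in WT thymus, list members that passed in both comparisons with WT, and the 3 nearest to 0 per comparison among the 50 most abundant. Not all are printed, and genes named outside this rule are marked. Alternatives covered scaling, the floor, the pseudocount (5 in place of 1), the moderation, the groups in the fit, a fold threshold and leaving out each library in turn.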

Additional observations from a re-analysis of the deposited data

Results flagged for a closer look

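A library was set apart where its gap to the nearest library of its group of 5 exceeded 0.71 of the group's range. This was examined in 182 sets of 5 values (medians of the arm and of the proximal genes, the 14 runs, and the genes named by rule on a log2 scale) and met in 10, and chance alone gives about 1 in 20. None of the medians or runs met it. In the Atm-/- group, lymphoma 3 was the only library above 0 for Cldn10 (2) and for Ctsg (5). In the Rag2c/c p53-/- group, lymphoma 1 was high for Lrp10 (6409) and Dock5 (2620) and low for Gpr18 (7). Lymphoma 2 of that group was high for Ggact (1003) and Gm28049 (10) and low for Dis3 (1067) and Ephx2 (0), and lymphoma 5 was low for Ptk2b (1429).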

How the results depend on the processing

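The mean distal median stayed between -0.61 and -0.42 for Atm-/- lymphomas and between 0.09 and 0.16 for Rag2c/c p53-/- lymphomas when 1 library was left out. Members with a mean of at least 50, protein coding members, a pseudocount of 5 and no centring moved it by less than the SD. A log2 difference of at least 1 besides left 29 higher members in Rag2c/c p53-/- lymphomas against WT and 39 lower ones between the lymphoma groups. Fitting only the 2 groups compared left 47 lower and 4 higher between the lymphoma groups, and a mean of at least 50 left 5 higher. Leaving out 1 library gave 76 to 117 lower and 18 to 32 higher members in Atm-/- lymphomas against WT, 22 to 48 lower and 29 to 56 higher in Rag2c/c p53-/- lymphomas, and 52 to 100 lower and 5 to 10 higher between the lymphoma groups. The other counts stayed within 1.5 times the reported ones. Of 136 calls of genes named by rule, 94 held under every alternative, 41 were lost when some 1 library was left out, 20 (partly the same calls) under some other setting, and 0 changed direction. The cause was not tested. The labels pair no library of a group with a library of another and give the lymphomas no replicate numbers, so no paired analysis was made. Depth limits low values: in 6 libraries 1 read was worth more than 1 normalized count.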

Other observations

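Some members with values of note lie outside the comparisons above and were picked after their values were seen. Tpm3-rs7, a tropomyosin-related gene 59.09 Mb from the locus, was at 4344 in Atm-/- lymphoma 5 and at 46 to 159 in the other 12 libraries. Blk, a Src-family kinase best known from B cells, was at 608, 671, 17, 887 and 32 in Atm-/- lymphomas 1 to 5, at 53 to 413 in Rag2c/c p53-/- lymphomas and at 205 to 245 in WT thymuses, while the summed B cell markers were at 103 to 272 in all Atm-/- lymphomas. Sox21, a neural transcription factor, was at 47, 5, 50, 2 and 21 in Atm-/- lymphomas 1 to 5 and at 0 to 5 in all other libraries, so that it reached the floor only through Atm-/- lymphomas. Tbc1d4, a Rab GTPase-activating protein of insulin-stimulated glucose uptake, was at 1150, 822 and 1194 in WT thymuses, at 21 to 269 in Atm-/- lymphomas and at 287 to 777 in Rag2c/c p53-/- lymphomas, with all 3 groups apart.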
